A study of Caenorhabditis elegans with 2 samples.

Results

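The 5 chaperone genes hsp-1, hsp-3, hsp-4, hsp-6 and hsp-60 were taken by symbol from the Ensembl annotation of WBcel235 for their compartments: hsp-1 for the cytosol, hsp-3 and hsp-4 for the endoplasmic reticulum, and hsp-6 and hsp-60 for the mitochondria. They are 5 of 19973 protein-coding genes on the nuclear chromosomes. They were chosen by compartment and on the signals of their peaks in these data, so those signals are a description and carry no test. The measurement was chromatin immunoprecipitation followed by sequencing (ChIP-seq), which maps where a protein sits on DNA. A single group was studied, intact L4 larvae of Caenorhabditis elegans aged 48 hours and synchronized by starving L1 larvae after bleaching, in 2 biological replicates. All animals were of strain OP773, in which the integrated transgene wgIs773 expresses Y105C5A.15 with a TY1 EGFP 3xFLAG tag and carries unc-119(+) in an unc-119(tm4063) background. The tagged protein was precipitated with an antibody against GFP. The labels give no second condition, and no sample without the tagged protein was analysed here, so antibody signal that does not need this protein cannot be told apart from its binding. Whole animals mix all tissues, and a peak does not say in which cells it arose.

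Chaperones bind unfolded proteins and help them reach or regain their shape. Hsp70 proteins do so by cycles of ATP hydrolysis: hsp-1 codes for the constitutive form of the cytosol, hsp-3 and hsp-4 for the pair of BiP proteins of the endoplasmic reticulum, and hsp-6 for the form in the mitochondrial matrix. The product of hsp-60 is the mitochondrial chaperonin, a barrel in which proteins fold, closed by a lid of HSP10. In the worm, hsp-4 is the classical reporter of the unfolded protein response of the endoplasmic reticulum, driven by ire-1 and xbp-1, while hsp-6 and hsp-60 are those of the mitochondrial unfolded protein response, driven by atfs-1. Heat shock elements, bound by HSF-1, are inverted repeats of GAA.

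The sequences below are the stretches that carry the strongest peak of hsp-60, hsp-6 and hsp-1, the part of the strongest hsp-3 peak upstream of the gene start (196 of its 256 bases), and the centre of the hsp-1 peak at an intronic snoRNA. They were read from the WBcel235 reference (ce11, the build of the peak files), 5′ to 3′ on the strand of the gene. In the hsp-60 and hsp-6 peaks, capitals mark a heat shock element of 3 GAA units (GAANNTTCNNGAA, on either strand) and the longest word the peaks share. In the hsp-1 peak upstream of the start they mark GAANNTTC. The hsp-1 window labelled intron runs from the intron into a coding exon of hsp-1. There capitals mark the 36 bases that belong to the snoRNA gene F26D10.24, and in hsp-3 they mark TGACGTG and GGCCGA.
hsp-60, chrIII:1618996-1619251, plus strand: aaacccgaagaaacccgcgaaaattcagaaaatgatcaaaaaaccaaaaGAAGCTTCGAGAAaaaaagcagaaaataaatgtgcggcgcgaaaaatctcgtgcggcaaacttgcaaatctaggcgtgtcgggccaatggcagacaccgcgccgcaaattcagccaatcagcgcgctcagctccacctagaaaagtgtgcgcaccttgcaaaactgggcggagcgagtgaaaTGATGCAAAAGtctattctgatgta
hsp-6, chrV:4827048-4827303, minus strand: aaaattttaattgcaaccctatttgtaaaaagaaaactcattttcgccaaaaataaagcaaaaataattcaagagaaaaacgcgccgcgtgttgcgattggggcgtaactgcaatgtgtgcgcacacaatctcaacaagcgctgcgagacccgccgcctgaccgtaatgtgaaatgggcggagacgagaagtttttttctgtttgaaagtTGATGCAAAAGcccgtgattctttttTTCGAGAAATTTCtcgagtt
hsp-1 upstream, chrIV:17278467-17278722, plus strand: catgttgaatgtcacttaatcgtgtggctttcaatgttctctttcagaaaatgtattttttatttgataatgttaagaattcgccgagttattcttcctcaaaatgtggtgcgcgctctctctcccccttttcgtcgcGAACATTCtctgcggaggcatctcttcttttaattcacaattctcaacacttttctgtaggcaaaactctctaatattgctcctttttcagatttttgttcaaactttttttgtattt
hsp-1 intron, chrIV:17280134-17280233, plus strand: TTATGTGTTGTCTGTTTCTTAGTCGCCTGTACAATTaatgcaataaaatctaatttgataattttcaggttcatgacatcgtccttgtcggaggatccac
hsp-3, chrX:6092125-6092320, minus strand: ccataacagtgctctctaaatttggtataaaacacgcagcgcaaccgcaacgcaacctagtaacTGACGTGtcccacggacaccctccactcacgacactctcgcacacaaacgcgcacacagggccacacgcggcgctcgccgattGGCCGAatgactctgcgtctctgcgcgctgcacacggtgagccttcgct

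Peaks were taken with their summit from 2000 bases upstream of a gene's start to its end. The ranked list over both replicates that contains the main list holds 103220 peaks with a median signal of 18.2, thresholded or not, where signal is the authors' own value for peak height. Each ranked peak has an irreproducible discovery rate (IDR), the expected share of peaks at least as good whose rank would not repeat. The main list is the longer thresholded list over both replicates, whose peaks have an IDR of at most 0.01. It holds 1046 peaks in 1023 merged regions, with a median signal of 64.1 and quartiles of 55.9 and 81.9. Read counts are not in the files used here, so depth is unknown and no counting interval is given.

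Of the 5 genes, 3 had a region of the main list in their window: hsp-60, hsp-6 and hsp-1. The same holds for 4.86% of all coding genes, or 1.94% when only 1000 bases upstream to 200 bases downstream of the start are searched, and hsp-60, hsp-6 and hsp-1 are also the genes with a region in that narrower promoter window. Since peak values entered the choice of the genes, nothing is read from their share. Both genes of the endoplasmic reticulum, hsp-3 and hsp-4, had none. The conservative list, another thresholded list of the authors with 831 regions, held the hsp-60 and hsp-6 regions and none of hsp-1 (4.06% of coding genes had a region in it, and 1.63% in the promoter window). In the thresholded list of replicate 1 alone hsp-60 and hsp-1 had a region in both windows (background 1.72%, and 0.661% in the promoter window). In that of replicate 2 alone hsp-1 had one, outside the promoter window (background 1.60%, and 0.616% in the promoter window). Counting any overlap of a main region with the window kept the same 3 genes (background 5.39%), and among the upper 50% of main regions by signal hsp-60 and hsp-6 had one (background 2.51%). At an IDR of at most 0.05, thresholded or not, hsp-3 joined the 3 genes (background 11.96%). Over the 5 windows there were 45 ranked peaks, of which 5 were in the main list.

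**Figure D1:**
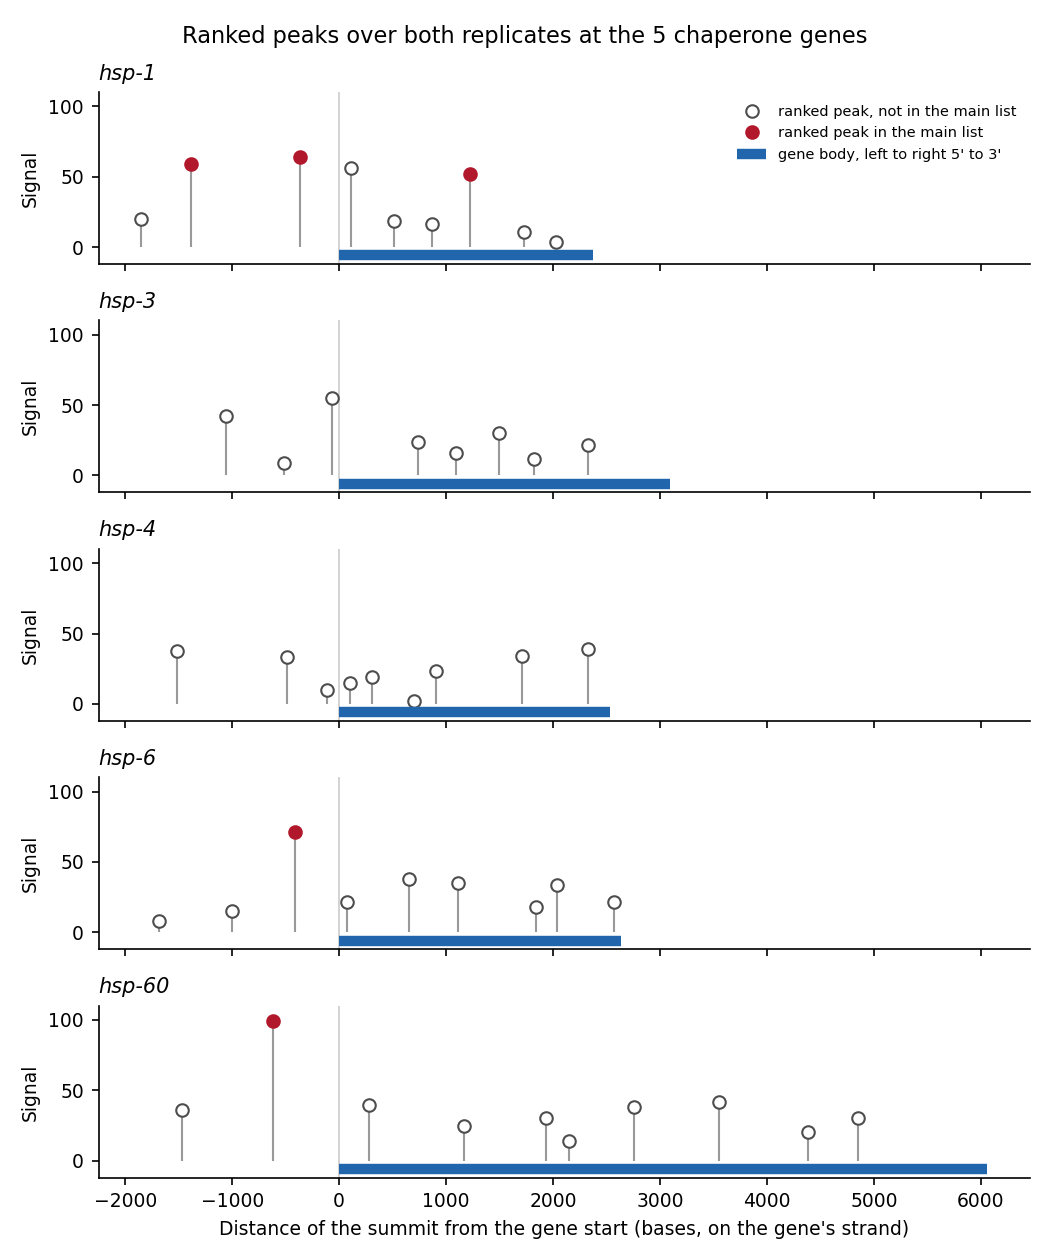
Each stem is 1 ranked peak over both replicates, placed by the distance of its summit from the gene start in bases and as high as its signal. Filled points are in the main list. The highest point of hsp-60 is at 99.16, 618 bases upstream, and hsp-3 and hsp-4 have no filled point.

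The strongest peak of the set belonged to hsp-60 (WBGene00002025, III, 1619742 to 1625803, plus strand). Its summit lay 618 bases upstream of the start, in intergenic sequence, with a signal of 99.16 and an IDR of 0.000522, rank 208 in the ranked list. The same peak lay 195 bases upstream of Y22D7AL.10 (III, 1617151 to 1618929, minus strand), the divergent gene for the HSP10 lid of the chaperonin, so the 1 peak sits between the genes of both chaperonin parts and nearer to that of the lid. Replicate 1 gave it a signal of 59.19 and replicate 2 a signal of 32.22 (mean 45.7 ± 19.1 SD, n = 2). Replicate 1 was the higher by 1.84-fold, and the peak passed the threshold in the list of replicate 1 alone but not in that of replicate 2, where its IDR was 0.116. The other 9 ranked peaks of hsp-60 had signals of 14.36 to 41.99. The highest of them, 3550 bases into the gene in a coding exon (41.99, IDR 0.0486), and one 280 bases into the gene in an intron (39.87, IDR 0.0410) were at similar heights in both replicates, with 19.82 and 22.61 for the former and 22.40 and 22.37 for the latter.

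The peak of hsp-6 (WBGene00002010, V, 4824124 to 4826760, minus strand) had its summit 416 bases upstream of the start, with a signal of 71.19 and an IDR of 0.00177. It lay within exons of a pair of overlapping non-coding RNA genes, C37H5.15 on the plus strand and C37H5.16 on the minus strand, 98 and 88 bases from their starts. The divergent coding gene C37H5.5 (V, 4827360 to 4836019) starts nearer to it than hsp-6 does, at 184 bases. Replicate 1 gave 31.16 and replicate 2 gave 38.58 (mean 34.9 ± 5.25 SD, n = 2). These values were the closest between replicates of any main peak of the 5 genes, 1.24-fold apart, yet the peak was in neither replicate's own thresholded list (IDR 0.0425 in replicate 1 and 0.0157 in replicate 2). Among the remaining 8 ranked peaks of hsp-6 the highest was at 37.64. One in a coding exon 1108 bases into the gene (35.36, IDR 0.0555) had 29.72 in replicate 1 and 9.82 in replicate 2.

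The cytosolic gene hsp-1 (WBGene00002005, IV, 17278959 to 17281330, plus strand) had 3 main peaks, and the replicates did not rank them alike. The strongest, 364 bases upstream of the start and intergenic, reached a signal of 63.85 (IDR 0.00173). Its IDR was 0.0337 in the ranked list behind the conservative list. In replicate 1 the peak was at 48.71, where it passed the threshold (IDR 0.00210), and in replicate 2 at 19.18 (mean 33.9 ± 20.9 SD, n = 2). Its summit was 182 bases from the start of F26D10.23, a non-coding RNA gene that lies upstream of hsp-1.

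The second peak, 1387 bases upstream of hsp-1 and in a coding exon of clec-196, a gene of a C-type lectin domain protein, had a signal of 59.15 (IDR 0.00455). It was at 18.71 in replicate 1 and 38.42 in replicate 2, a mean of 28.6 ± 13.9 (SD, n = 2). In the ranked list behind the conservative list its IDR was 0.0287. Another, 1225 bases into hsp-1, had a signal of 51.75 (IDR 0.00433) and overlapped the snoRNA gene F26D10.24 (IV, 17280046 to 17280169, plus strand) in an intron of hsp-1. Small nucleolar RNAs guide the modification of other RNAs, and many are cut from introns of host genes. The peak at the snoRNA gene was at 16.65 in replicate 1 and 40.06 in replicate 2, a mean of 28.4 ± 16.6 (SD, n = 2). Its IDR in the ranked list behind the conservative list was 0.0684. This peak alone of all peaks of the 5 genes was in the thresholded list of replicate 2 (IDR 0.00584). Its summit in replicate 2 lay in a coding exon of hsp-1, 1269 bases into the gene. In replicate 1 the summit lay in the snoRNA gene, with an IDR of 0.838. One more hsp-1 peak, 114 bases into the gene in a coding exon, was outside the limit with 56.04 (IDR 0.0145, and 0.223 in the ranked list behind the conservative list), at 13.95 in replicate 1 and 40.60 in replicate 2. The 13.95 belongs to an overlapping replicate 1 peak with its summit 290 bases into hsp-1, outside this peak. Thus, by the highest overlapping peaks, the one 364 bases upstream was higher in replicate 1, and the other 3 were higher in replicate 2. The remaining 5 ranked peaks of hsp-1 had signals of 3.43 to 19.81.

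For scale, 997 main regions had a ranked peak in both replicates. Their log2 ratio of replicate 2 over replicate 1 had a median of 0.10, with quartiles of −0.27 and 0.47, and 57.9% were higher in replicate 2. The log2 ratio was −1.35 at the hsp-1 peak 364 bases upstream, and 1.50% of the regions lay at least as far from the median. At the hsp-1 peak 1225 bases into the gene it was 1.27 (3.91% at least as far), at the one 1387 bases upstream 1.04 (9.33%) and at hsp-60 −0.88 (7.82%). At hsp-6 the ratio was 0.31, and 69.9% of regions lay at least as far from the median. With 2 replicates, no test of a single site was made.

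**Figure D2:**
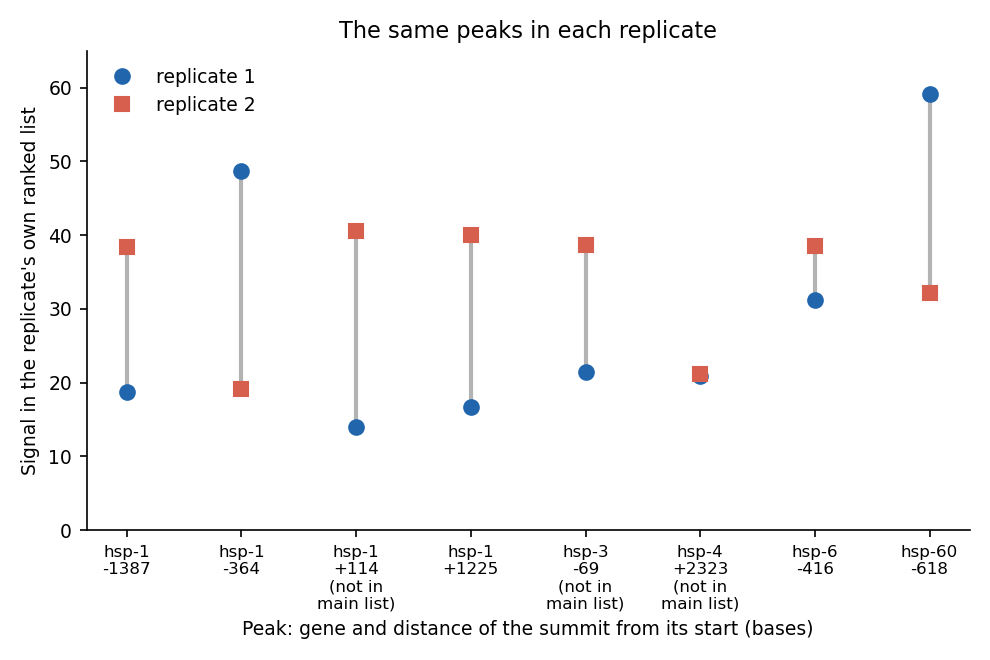
Signal of the highest overlapping peak in the ranked list of replicate 1 (circles) and of replicate 2 (squares). Below are the gene and the distance in bases from its start to the summit over both replicates. Shown are the 5 main peaks and the strongest other peak of hsp-1, hsp-3 and hsp-4. The hsp-1 peak at −364 and the hsp-60 peak are higher in replicate 1 (48.71 and 59.19). The hsp-4 values of 20.95 and 21.17 come from replicate peaks with different summits. For hsp-4 and for hsp-1 at 114, the replicate 1 summit lies outside the peak over both replicates.

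The endoplasmic reticulum genes differed in height, though neither had a main region. For hsp-3 (WBGene00002007, X, 6089028 to 6092124, minus strand) the strongest peak had its summit 69 bases upstream of the start, the closest to a start among the strongest peaks of the 5 genes. Its signal of 55.01 exceeded that of the intronic hsp-1 peak, but its IDR of 0.0124 (0.0109 in the ranked list behind the conservative list) was just past the limit. In the ranked list behind the conservative list the 3 main hsp-1 peaks had higher IDRs than this peak (0.0287 to 0.0684). The hsp-3 peak was at 21.41 in replicate 1 and 38.69 in replicate 2, a mean of 30.1 ± 12 (SD, n = 2). The next, 1056 bases upstream, was at 42.20 (IDR 0.0671), and the other 6 ranked peaks of hsp-3 were at 9.05 to 30.26.

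The lowest of the 5 genes was hsp-4 (WBGene00002008, II, 7350112 to 7352645, minus strand). Its 9 ranked peaks ran from 2.02 to 38.70 with no dominant one. The highest, in a coding exon 2323 bases into the gene, had an IDR of 0.561 (0.0590 in the ranked list behind the conservative list). It was at 20.95 in replicate 1 and 21.17 in replicate 2, a mean of 21.1 ± 0.153 (SD, n = 2). The replicate 1 value belongs to an overlapping peak with its summit 2473 bases into the gene, outside this peak. The 2 values therefore do not measure the same summit. The highest in the promoter window, 488 bases upstream, reached 33.30 (IDR 0.173), with 16.63 and 18.62 in the replicates (mean 17.6 ± 1.40 SD, n = 2). In this peak 35.2% of 30-base words occur more than once in the genome, where reads can be placed ambiguously. Of the 45 ranked peaks, 4 held any such word, among them the hsp-1 peak 114 bases into the gene (16.3% of its words), and among the 5 main peaks only the hsp-1 peak at the snoRNA did (3.96%).

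Several neighbouring ranked peaks overlap the same peak of a replicate, so their replicate values are not separate measurements. Ranked peaks lay at 1.24 per kb in the hsp-60 window and up to 2.06 per kb in that of hsp-1, against 1.03 per kb over the genome. The hsp-60 window is long, and 11.8% of coding genes have one at least as long, while for the other genes this share was 31.0 to 42.1%.

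Each gene was then placed among all coding genes by its strongest ranked peak in the promoter window, a description in which the order is that of the values above. At hsp-60, 0.280% of coding genes (56 genes) were at least as high, at hsp-6 0.736%, at hsp-1 1.11%, at hsp-3 1.76% and at hsp-4 12.7%. The median over the 14704 coding genes with such a peak was 22.6, so all 5 genes stood above it. The order depended on the replicate. In replicate 1, hsp-60 (0.170% at least as high) and hsp-1 (0.315%) led, followed by hsp-6 (1.35%), hsp-3 (6.07%) and hsp-4 (15.1%). In replicate 2, hsp-1 (0.651%), hsp-3 (0.746%) and hsp-6 (0.771%) were almost level, hsp-60 was lower (1.57%), and hsp-4 was again last (13.9%). In signal, the replicates of hsp-60 (59.19 and 32.22) spanned those of hsp-6 (31.16 and 38.58) in large part and those of hsp-1 (48.71 and 40.60) wholly, and hsp-6 lay within the range of hsp-3 (21.41 and 38.69). The hsp-1 values come from different peaks and were both above those of hsp-6 and hsp-3, though hsp-6 was the higher over both replicates. Those of hsp-4 in this window (16.63 and 18.62) were below all others.

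**Figure D3:**
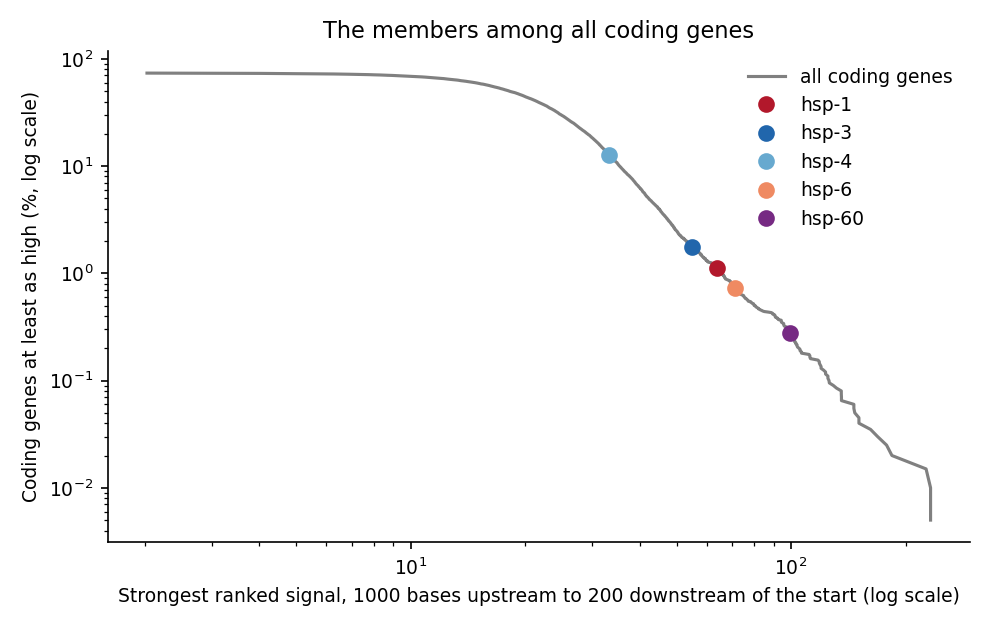
Share of all coding genes whose strongest ranked signal in the promoter window is at least as high as the value on the x axis (both axes logarithmic), with the 5 chaperone genes as points. From hsp-4 at 12.7% to hsp-60 at 0.280% the genes run down the upper part of the distribution.

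In all 3 genes with a main region, every main summit was nearer to the annotated start of another gene than to the start of the chaperone gene. Those nearer starts were Y22D7AL.10 for hsp-60, C37H5.15, C37H5.16 and C37H5.5 for hsp-6, and F26D10.23, F26D10.24 and clec-196 for hsp-1. The only other gene with a start within 2000 bases of one of these summits was lhfp-4, 1991 bases from the hsp-1 peak in clec-196. Counting a region only for the nearest annotated start of any kind left 0 of the 5 genes with a region, against 1.74% of coding genes.

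Sequence was examined in 100 bases around the summits of the 5 main peaks and of the strongest hsp-3 and hsp-4 peaks. GC content was 66.0% at hsp-3, 59.0% at hsp-6 and 58.0% at hsp-60, above the median of 48.0% over all main regions. At hsp-1 it was 48.0% (364 bases upstream), 45% (1387 bases upstream) and 36% (1225 bases into the gene), and at hsp-4 47.0%. Of 7 words searched on both strands, 3 were found, each at 1 summit. GAANNTTC, an inverted pair of heat shock GAA units, was at the hsp-1 summit 364 bases upstream (7.62% of all main regions hold it in such a window). GGCCGA was at hsp-3 (9.19%), and TTCNNGAA, the pair in the other order, was at hsp-4 (5.47%). GTTCGA (17.3% of main regions) and CGAACC (15.8%), which belong to the internal promoter of tRNA genes, were at none of these summits and in none of the whole peaks, and the same was true of ACCACT (15.8%).

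The whole peaks of 256 bases held more, a search added after their letters had been seen. In the hsp-60 and hsp-6 peaks GAANNTTC and TTCNNGAA overlap to form the element of 3 GAA units printed above. It reads GAAGCTTCGAGAA in hsp-60, 73 bases upstream of the summit and 691 bases upstream of the gene start. In hsp-6 it reads TTCGAGAAATTTC, 115 bases downstream of the summit and 301 bases upstream of the start. This element was in 32 of the 1023 main regions (3.13%), taking 256 bases around each summit. The word TGATGCAAAAG was picked as the longest the hsp-6 and hsp-60 peaks share, so its presence in them was given. It was in 2 of the 1023, these same peaks, and nothing is read from that count. It lay 88 bases downstream of the summit in hsp-6 and 108 in hsp-60, and 328 and 510 bases upstream of the gene starts. Its first 8 letters, TGATGCAA, resemble the core of the C/EBP-ATF composite element known from mammals. These letters were in 14 regions (1.37%). The hsp-6 and hsp-60 peaks are among them by the same choice, so nothing is read from that count either. Shared words of 11 bases also occurred in 2 other pairs of the 7 peaks, and the other 18 of the 21 pairs shared 7 to 10 bases, so the length of this word does not set the pair apart. At hsp-3, TGACGTG, a core found in elements bound by ATF6 and XBP1 in mammals, lay 60 bases upstream of the summit and 129 bases upstream of the start (1.96% of main regions hold it in 256 bases). A match is a description of letters and does not show that a factor is bound there.

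The 5 genes were set beside 3 lists of chaperone and stress response genes of the same compartments, chosen with earlier results of these data known. Of 39 cytosolic genes 8 had a main region in the window (20.5%), of 21 genes of the endoplasmic reticulum 0, and of 17 mitochondrial genes 4 (23.5%), against 4.86% of all coding genes. Leaving the 5 genes aside, the counts were 7 of 38, 0 of 19 and 2 of 15. These are counts of genes, and some regions are shared: the 4 mitochondrial genes held 3 regions between them. Of the 2 mitochondrial genes left, hsp-10 (Y22D7AL.10) holds the hsp-60 region itself. Among the 7 cytosolic genes, F44E5.4 and F44E5.5 share a region. The median strongest ranked signal in the promoter window was 24.20 for the cytosolic list, 27.81 for the endoplasmic reticulum and 24.13 for the mitochondria, against 22.58 over coding genes, so the list with no region had the highest median. No test was made of these lists.

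Among the cytosolic genes, the divergent Hsp70 genes F44E5.4 and F44E5.5 shared 1 region with a signal of 232.69. The region of dnj-13, a J-domain co-chaperone of Hsp70, was at 72.40, with its summit 169 bases upstream of the start. This summit lay in exons of the non-coding RNA F54D5.22 and in an intron of dhgd-1. The region of bag-1, a nucleotide exchange factor of Hsp70, was at 59.78, 185 bases upstream. That of cct-8, a subunit of the cytosolic chaperonin, was at 51.43, 416 bases upstream. Its summit was nearer to the start of the coding gene Y55F3AR.2, at 205 bases. The regions of hsp-110 (2, the stronger at 53.31 in its own coding exon) and of hsp-90 (51.27, in a coding exon of C47E8.3) lay outside the promoter window. Apart from the region of hsp-60 that hsp-10, as Y22D7AL.10 is listed, also holds, the mitochondrial list had clpp-1, a matrix protease, with a region at a tRNA gene in its intron (35.52). Within their list hsp-60, with hsp-10 at the same peak, and then hsp-6 had the highest signals, and among the cytosolic genes hsp-1 came after F44E5.4, F44E5.5 and dnj-13.

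**Figure D4:**
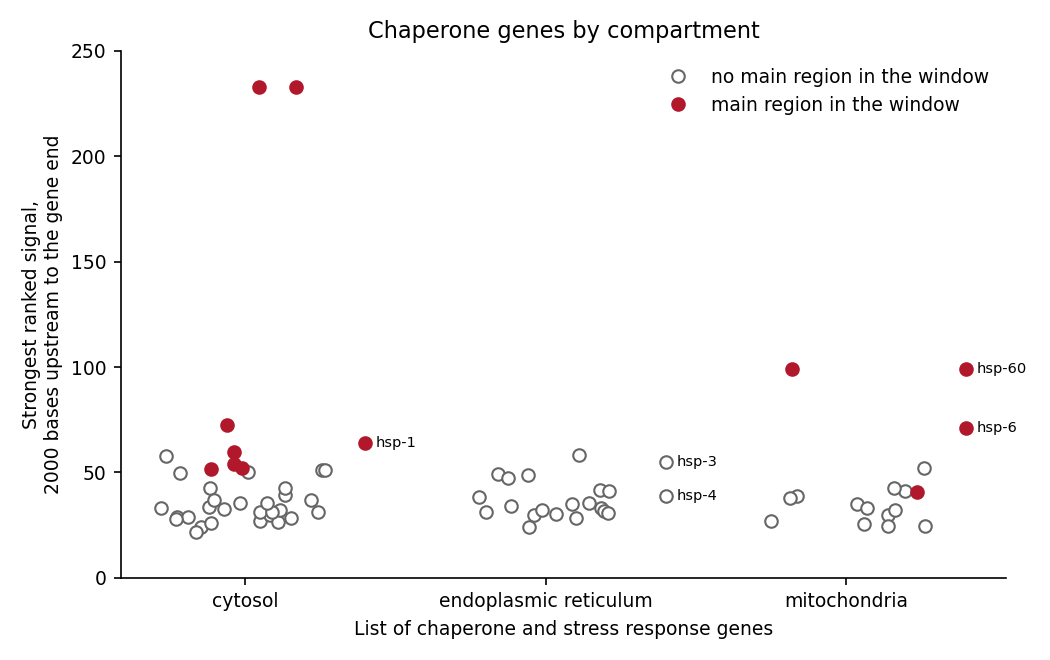
Strongest ranked signal of genes of the 3 lists, from 2000 bases upstream of the start to the gene end. Filled points are genes that have a main region. Cytosolic genes without a ranked peak in that window are not shown. Points are spread sideways for legibility, with the 5 chaperone genes at the right of each list; F44E5.4 and F44E5.5 share the value of 232.69.

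Genes of the endoplasmic reticulum list with ranked peaks near those of hsp-3 were named after their values were seen. They were xbp-1, the transcription factor of the unfolded protein response, at 58.24 (IDR 0.612), enpl-1, the Hsp90 of this compartment, at 49.33 (IDR 0.0234), pdi-3, a protein disulfide isomerase, at 48.84 (IDR 0.0404), and atf-6, a stress sensor, at 47.12 (IDR 0.0274). Of all these, hsp-3 had the lowest IDR at its strongest peak. The xbp-1 peak had a higher signal than hsp-3 but an IDR far above the limit. Height alone therefore did not place a peak in the main list.

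The genes most like hsp-1, hsp-6 and hsp-60 were sought among genes with a main region, so hsp-3 and hsp-4 were not compared. They were those with the nearest log2 signals in the ranked list over both replicates, in replicate 1 and in replicate 2, by Euclidean distance over these 3 values. For hsp-60 and hsp-6 the nearest were Y22D7AL.10 and C37H5.5, at a distance of 0.00 because they share the peak. The next were twk-21, a potassium channel gene, for hsp-60 (99.56, 63.74 and 31.53, distance 0.11) and Y111B2A.12 for hsp-6 (69.87, 29.59 and 38.81, distance 0.08). For hsp-1 they were lin-59, a gene of a histone methyltransferase (65.47, 46.61 and 19.64, distance 0.08), and C18H7.1 (67.47, 43.79 and 19.42, distance 0.17). The peaks of lin-59 and C18H7.1 lay 2139 and 4977 bases into those genes. The comparison covered 598 candidate genes for hsp-1 and 599 for hsp-6 and hsp-60. Each candidate's start was the nearest coding start to its region, which had a ranked peak in both replicates. Other genes with a main region, hsp-6 and hsp-60 among them, were not candidates.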

How the data were processed

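ChIP-seq peaks of the tagged protein came from 2 biological replicates of 1 group, and groups and replicate numbers from the labels. Per the labels' text records, the authors made ranked and thresholded lists from filtered alignments and 1 control alignment file on ce11. Aligner and peak caller are not named in the sources used here. The signal is the authors' deposited value per peak, on a scale these sources do not state. The −log10 of the global IDR, as deposited by the authors, was converted to the IDR. The 16 unnamed columns of single replicates or pseudoreplicates in the ranked lists were not used.

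Overlapping thresholded peaks were merged into regions with Python 3.11.15, pandas 2.3.3 and numpy 2.4.6, keeping the strongest summit. Gene windows came from Ensembl release 115, after peak ends were checked against WBcel235 chromosome lengths. Replicate values come from the ranked list of each replicate, by the highest peak that overlaps. Window counts and word searches were tested on simulated data. The members and lists were chosen with earlier results of these data known, as were 4 of the 7 words. Genes named were the 5 members, genes of the lists with a main region, and genes at or nearest to the summits of those regions. Also named were genes with a start within 2000 bases of a member's main summit, and the 2 most similar genes. Any others are said to be chosen after their values were seen. No test was run. Alternatives were other lists, windows, limits, single replicates and the nearest start.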

Additional observations from a re-analysis of the deposited data

How the results depend on the processing

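Of the 5 genes, 3 had a region in the main list, in the promoter window and with any overlap, 2 in the conservative list and in the upper 50% of regions by signal, 4 at an IDR of at most 0.05 (hsp-3 joined), 1 to 2 in a single replicate and 0 with the nearest start only. With a region in replicate 2 alone stood hsp-1, and in replicate 1 alone hsp-1 and hsp-60. Against 971 coding genes in the main setting, there were 387 in the promoter window, 501 in the upper 50% by signal, 2389 at an IDR of at most 0.05, 347 by the nearest start and 319 to 343 in a single replicate. The chaperone lists, which include the 5 genes, had 12 genes with a region (15.6%, against 4.86% of all coding genes). There were 9 in the promoter window (11.7% against 1.94%). The conservative list had 10 (13.0% against 4.06%), and any overlap gave 17 (22.1% against 5.39%). The upper 50% held 6 (7.79% against 2.51%), and an IDR of at most 0.05 gave 22 (28.6% against 11.96%). By the nearest start there were 5 (6.49% against 1.74%), and in a single replicate 4 to 5 (5.19 to 6.49% against 1.60 to 1.72%). Some regions are shared, and nothing is read from these shares.

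Signals in a single replicate's list ran from 40.60 to 48.71 for hsp-1, 21.41 to 38.69 for hsp-3, 20.95 to 27.69 for hsp-4, 31.16 to 38.58 for hsp-6 and 32.22 to 59.19 for hsp-60, all below the value over both replicates. The 2 values of hsp-4 come from different peaks, as do those of hsp-1. The 27.69 of hsp-4 in replicate 2 lay 1521 bases upstream, in a coding exon of another gene. Replicate 1 had no ranked peak overlapping there. In the promoter window the strongest hsp-4 peak over both replicates was at 33.30. The share of coding genes at least as high over the whole window was 2.66% for hsp-1 (0.831 to 1.70% in a single replicate), 4.51% for hsp-3 (1.96 to 18.2%), 21% for hsp-4 (8.3 to 19.8%), 1.92% for hsp-6 (2.00 to 3.49%) and 0.756% for hsp-60 (0.416 to 4.10%). Matches of the 7 words at the 7 summits were 3 in 100 bases, 6 in 200 bases and 8 in whole peaks, the last chosen after seeing the data; wider windows hold more letters. The causes of the other shifts were not tested. No paired analysis was possible because there is 1 group. Depth is unknown, and it limits each list in a way that could not be measured.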
